A study of Mus musculus with 16 samples.

Results

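Intervertebral discs of 4 injured wild-type mice fell into a pair with a small response and a pair with a large one, and the account below sets out which genes had already moved in the weak pair and which had moved in the strong pair alone. The weak pair is injured wild-type mice 1 and 2, and the strong pair is injured wild-type mice 3 and 4. Each pair was set beside the same 3 intact wild-type mice, so that 7 of the 16 libraries of the series enter the pairs and their controls. The pairs were chosen from measured values of these libraries, with Lcn2 and Il11 as marks of the response. The differences between the pairs, and of each pair from the intact mice, are therefore descriptions, with no test.

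The series measured bulk RNA in tail discs of mice that were wild type or carried Adam8EQ, an allele of the metalloprotease gene Adam8, with discs either injured or left intact. Each library held the discs of 1 mouse, 4 coccygeal discs pooled. The groups were 4 injured and 3 intact wild-type mice, and 5 injured and 4 intact Adam8EQ mutants. The series title names DBA mice, while age, sex, the way of injury and the time after it were not given in the sources used here. For wild-type mice the genotype entry is truncated, so their genotype was read from the titles. In the library names the 2 mice of each pair carry neighbouring numbers, and nothing says what those numbers stand for, so any handling that the mice of a pair shared cannot be told apart from the size of the response.

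The disc joins a fibrous ring, the annulus fibrosus, to a gel-like core, the nucleus pulposus, whose cells descend from the notochord. Both are poor in blood vessels and hold few immune cells when intact. After a puncture or cut, disc cells themselves release chemokines and matrix proteases, leukocytes and vessels can enter, and surviving cells may divide and lay down scar matrix in place of cartilage matrix.

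Values are TPM, a transcript's share of its library after scaling for gene length, and differences are of mean log2(TPM + 1), so that 1 unit is a doubling for a well expressed gene and less than that shows for a gene near 0. A gene was counted as moved in a pair when the mean difference from the intact mice was at least 1 in size and both mice of the pair lay beyond all 3 intact mice. It was counted as moved in the strong pair only when, besides, the weak-pair difference in that direction stayed under 0.5. Depth, recovered from the steps between low values, was 10613767 to 14841879 reads in the 7 wild-type libraries, and 92.2 to 93.2% of low values came out whole within 0.05 of a read. Both strong libraries were deeper (13483408 and 14841879 reads) than both weak ones (13009198 and 11376118 reads), and the part of depth in the differences between the pairs was not tested. Mitochondrial genes took 6.90 and 7.70% of the TPM in the weak pair, 7.27 and 6.89% in the strong pair, and 4.53 to 6.35% in the intact mice. Defining disc transcripts were present in the intact mice, with Acan, the large cartilage proteoglycan, at 6074, 6878 and 6317 TPM and T, the notochord transcription factor brachyury, at 3370, 3030 and 2623 TPM.

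Lcn2 encodes lipocalin-2, an iron-siderophore binding protein of innate defence. It stood at 63.7, 58.4 and 85.8 TPM in the intact mice, at 478 and 723 TPM in the weak pair, and at 1805 and 1762 TPM in the strong pair. The 3 groups did not overlap, and the differences from intact were 3.09 in the weak pair and 4.69 in the strong pair. Il11 encodes interleukin-11, a cytokine of the interleukin-6 family. It was at 2.87, 1.87 and 2.31 TPM in the intact mice, 7.48 and 17.3 TPM in the weak pair, and 149 and 92.8 TPM in the strong pair, with differences of 1.90 and 5.15. The weak mice thus carried a large share of the Lcn2 difference on the log scale and a smaller share of the Il11 difference.

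Over 24188 genes that reached 1 TPM in at least 3 of the 16 libraries, 566 (2.34%) moved up and 310 (1.28%) moved down in the weak pair, against 2124 (8.78%) up and 1497 (6.19%) down in the strong pair. In both pairs, 295 genes (1.22%) moved up and 115 (0.475%) moved down. In the strong pair only, 1204 (4.98%) moved up and 975 (4.03%) moved down. A further 616 (2.55%) moved up and 402 (1.66%) moved down in the strong pair while the weak pair lay between these limits. The weak pair alone had 142 genes (0.587%) up and 86 (0.356%) down. Another 124 (0.513%) moved up and 100 (0.413%) moved down in the weak pair while the strong pair differed by at least 0.5 in the same direction without moving, and 14 genes (0.0579%) moved in opposite directions in the pairs. Both sets of differences use the same 3 intact mice, so a chance deviation of those mice enters both, and nothing is read from how well the pairs match.

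**Figure D1:**
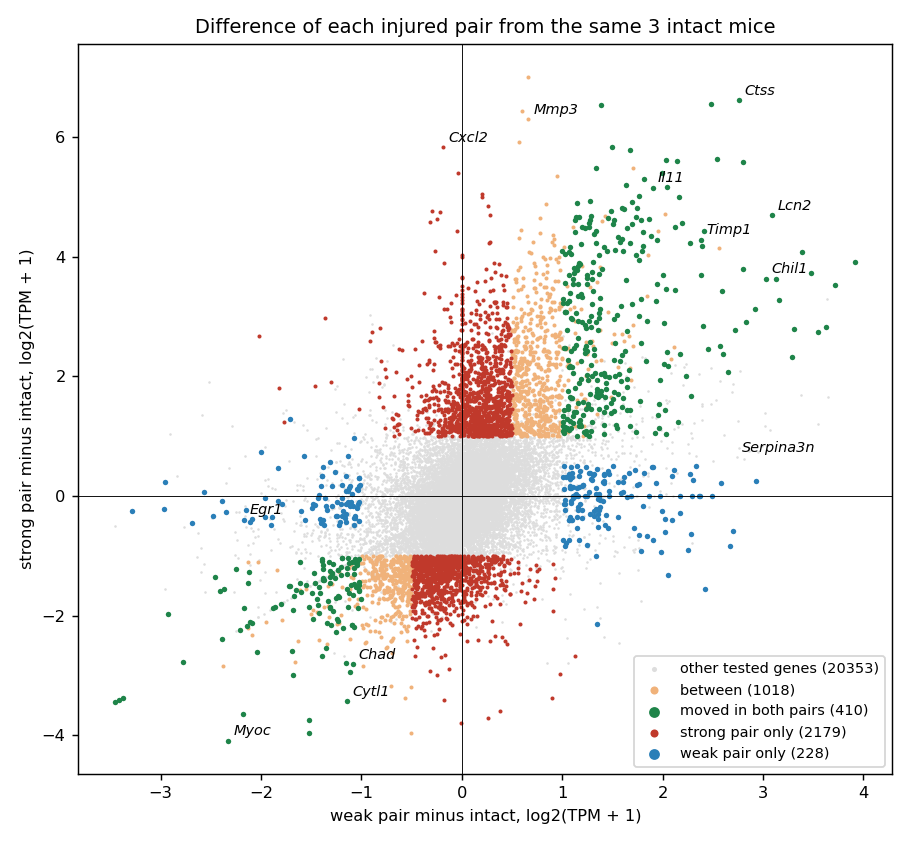
Each point is 1 of 24188 genes, with the weak-pair difference from intact on the x axis and the strong-pair difference on the y axis, both in log2(TPM + 1); colours mark genes that moved in both pairs, in the strong pair only, in the weak pair only, or in between. Lcn2, Chil1 and Ctss lie far out on both axes, Cxcl2 lies near 0 on the x axis and high on the y axis, and both axes share the same 3 intact mice.

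The limits fall within a continuous spread of values. At the limit for the weak pair, Spi1 lay just inside with a difference of 1.0001 and Gm26835 just outside with 0.9983. At the limit for the strong pair, Foxc1 lay just inside with 1.0017 and Dusp5 just outside with 0.9995. At the weak-pair limit for a gene moved in the strong pair only, Gm42819 had 0.4958 and Slc36a1 had 0.5014.

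The mice of a pair were not alike. Counted 1 mouse at a time, with a difference of at least 1 and a level beyond all intact mice, weak mouse 1 had 1003 genes up and 493 down, and weak mouse 2 had 1242 up and 727 down. Strong mouse 3 had 3120 up and 2291 down, and strong mouse 4 had 2001 up and 1448 down. The order of the 4 mice was the same in both directions, and in both the strong mice lay further from each other than strong mouse 4 lay from weak mouse 2.

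Of 16 acute-phase and innate defence genes, 7 moved up in the weak pair, and 6 of these also moved up in the strong pair. The other, Orm1, an acute-phase plasma protein, was at 2.63, 0 and 0 TPM in the intact mice, 7.02 and 4.30 TPM in the weak pair, and 1.94 and 1.80 TPM in the strong pair. Chil1 encodes a chitinase-like glycoprotein, also known as cartilage glycoprotein 39. It was at 144, 177 and 191 TPM in the intact mice, 1396 and 1394 TPM in the weak pair, and 2055 and 2162 TPM in the strong pair. Most of its difference was already present in the weak mice, with 3.03 in the weak and 3.63 in the strong pair. Saa1, a serum amyloid A, differed by 2.03 and 5.61, Slpi, a leukocyte protease inhibitor, by 2.12 and 4.49, and Steap4, a metalloreductase, by 1.58 and 4.25. By contrast, haptoglobin (Hp) read 4.23, 2.15 and 2.42 TPM in the intact mice, 1.40 and 3.46 TPM in the weak pair, and 77.8 and 17.7 TPM in the strong pair. Saa3, another serum amyloid A, was at 0.391, 0.724 and 0.298 TPM in the intact mice, 0.491 and 2.27 TPM in the weak pair, and 139 and 115 TPM in the strong pair. Members of 1 functional group therefore fell into different classes. In bulk tissue a higher level from more cells of a type cannot be told apart from more RNA per cell, here and in every result that follows.

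**Figure D2:**
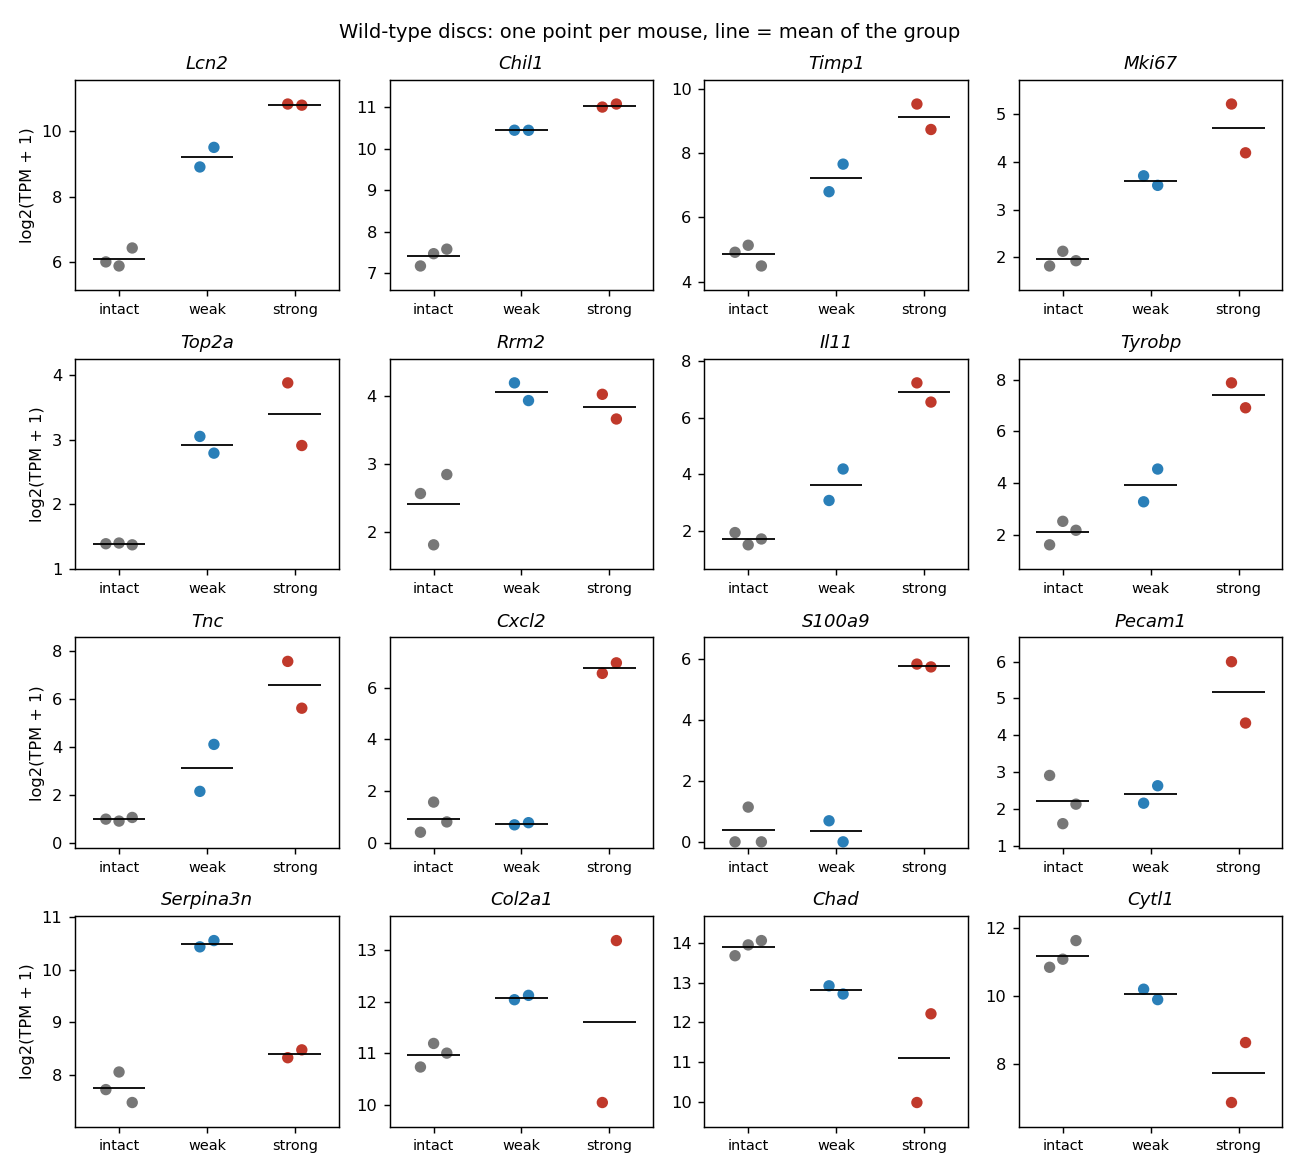
Points are single wild-type mice and lines are group means, in log2(TPM + 1), for intact, weak and strong groups of 3, 2 and 2 mice; each panel has its own y axis. Lcn2, Chil1 and Timp1 step up from intact to weak to strong, Cxcl2 and S100a9 are high in the strong mice alone, Top2a and Rrm2 reach much of their level in the weak mice, and Serpina3n is highest in the weak mice.

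Among cytokines of the interleukin-6 and interleukin-1 families, Il11 was the 1 gene of 19 that moved up in the weak pair. Il6 was at 0.280, 0.259 and 0 TPM in the intact mice, 0.396 and 0.762 TPM in the weak pair, and 5.33 and 6.21 TPM in the strong pair. Lif, encoding leukaemia inhibitory factor, was at 1.25, 1.73 and 1.34 TPM in the intact mice, 1.10 and 1.19 TPM in the weak pair, and 31.6 and 39.1 TPM in the strong pair. Il6, Lif and Osm (oncostatin M) were counted as moved in the strong pair only, although both weak mice lay above the intact mice for Il6, with a weak-pair difference of 0.42. Osmr, the oncostatin M receptor chain, stood at 69.4 and 68.8 TPM in the weak pair and at 82 and 80.1 TPM in the strong pair, above 39.2, 39.1 and 26.9 TPM in the intact mice, but its weak-pair difference of 0.98 stayed just under the limit. Il1b, encoding interleukin-1 beta, differed by 0.58 in the weak and by 3.82 in the strong pair.

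The RefSeq promoter table (GRCm38.p6) holds 2 start sites for Il11, and the 250 bases before the downstream one, at chr7:4778142-4778391 on the minus strand, are shown because they hold the AP-1 letters TGANTCA. The capitals mark that match, 98 to 92 bases before the start.
Il11: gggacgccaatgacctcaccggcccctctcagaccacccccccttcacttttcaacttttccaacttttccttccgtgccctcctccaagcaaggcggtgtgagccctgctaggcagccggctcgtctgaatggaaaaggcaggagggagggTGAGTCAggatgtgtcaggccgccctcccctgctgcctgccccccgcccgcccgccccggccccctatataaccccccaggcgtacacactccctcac

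Chemokines, secreted proteins that attract leukocytes, split between the classes. In both pairs 4 of 17 moved up, namely Ccl2, Ccl7, Ccl9 and Cxcl16, and 8 moved up in the strong pair only, namely Cxcl2, Cxcl3, Cxcl10, Cxcl12, Ccl3, Ccl4, Ccl8 and Cx3cl1. The monocyte attractant Ccl2 was at 3.28, 2.21 and 2.73 TPM in the intact mice, 10.1 and 9.11 TPM in the weak pair, and 107 and 67.5 TPM in the strong pair. Its neighbour in function Ccl7 differed by 1.80 in the weak and by 4.18 in the strong pair. The neutrophil attractant Cxcl2 was at 0.328, 1.98 and 0.750 TPM in the intact mice, 0.619 and 0.716 TPM in the weak pair, and 93.2 and 124 TPM in the strong pair. The weak mice lay inside the intact range for Cxcl2 and both strong mice far above it. Cxcl1, a neutrophil attractant as well, read 1.27, 1.68 and 0.621 TPM in the intact mice, 2.05 and 2.76 TPM in the weak pair, and 269 and 277 TPM in the strong pair. Summed over the 20 listed chemokines, the level was 64.8, 44.2 and 40.6 TPM in the intact mice, 79.8 and 100 TPM in the weak pair, and 1334 and 885 TPM in the strong pair.

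The 250 bases before the RefSeq start of Cxcl2, at chr5:90903649-90903898 on the plus strand of GRCm38.p6, are shown because Cxcl2 had the largest strong-pair difference among the named genes that moved in that pair only. Capitals mark matches to either of the NF-kappaB motifs searched on both strands, which are GGG and TTTCC with 2 bases between them, and GGG and TTCC with 3 bases between them. The upstream run joins overlapping matches.
Cxcl2: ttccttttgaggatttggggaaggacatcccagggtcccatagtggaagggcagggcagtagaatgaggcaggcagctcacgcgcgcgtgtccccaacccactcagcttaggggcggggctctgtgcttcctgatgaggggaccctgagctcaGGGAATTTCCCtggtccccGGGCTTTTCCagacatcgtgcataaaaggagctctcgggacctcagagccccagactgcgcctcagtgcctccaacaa

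Among genes of NF-kappaB and STAT3 signalling and feedback, moves were mostly in the strong pair, and the activity of these pathways was not measured. Of 20, 2 moved up in both pairs, 7 in the strong pair only and 3 lay between. The others, Rela, Nfkb1, Stat3 and Jak2 among them, moved in neither pair. Bcl3, a nuclear IkappaB protein, was at 9.46, 8.63 and 3.29 TPM in the intact mice, 32.7 and 31.1 TPM in the weak pair, and 119 and 55.7 TPM in the strong pair. Cebpd, a C/EBP transcription factor of the acute-phase response, was at 22.7, 32.9 and 31.0 TPM, then 68.4 and 84.6 TPM, then 105 and 83.4 TPM. For Cebpd the weak and strong mice overlapped. The related factor Cebpb, at 37.9, 47.6 and 26.8 TPM in the intact mice, was at 37.2 and 43.8 TPM in the weak pair and 162 and 126 TPM in the strong pair. Nfkbia, Nfkbie, Nfkb2, Relb, Rel and Zc3h12a, feedback inhibitors and subunits, were likewise counted in the strong pair only, with strong-pair differences of 1.17 to 2.29.

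Macrophage and monocyte markers were intermediate. Of 18, 9 moved up in both pairs, 5 lay between, 3 moved in the strong pair only, and Csf1r was in none of these classes. The median difference over the 18 genes was 1.0 in the weak and 3.79 in the strong pair, beside 0.04 and -0.01 over all tested genes. Lyz2, the lysozyme of myeloid cells, was at 40.2, 37.2 and 30.9 TPM in the intact mice, 71.6 and 189 TPM in the weak pair, and 2453 and 1694 TPM in the strong pair. Tyrobp, a signalling adaptor of myeloid receptors, was at 2.04, 4.71 and 3.49 TPM, then 8.64 and 22.2 TPM, then 233 and 119 TPM. Ccr2, the receptor for Ccl2 on inflammatory monocytes, was at 0.904, 0.604 and 0.516 TPM, then 3.93 and 15.0 TPM, then 53.2 and 22.9 TPM. In all 3 genes weak mouse 2 stood above weak mouse 1 and below both strong mice. Over the whole list both strong mice lay above both weak mice in 18 of 18 genes, against 24.7% of all tested genes, while 31.4% of all tested genes had both strong mice below both weak mice. The list median was 0.67 in weak mouse 1 and 1.43 in weak mouse 2. Ctss, the lysosomal protease cathepsin S, and the antigen presentation genes Cd74 and H2-Aa, named after their values were seen, also moved in both pairs, with weak-pair differences of 2.76, 2.80 and 2.54.

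Neutrophil markers had not moved up in the weak pair in any of 13 tested genes. Over all tested genes 2.34% moved up there, so in so short a list none is near that share. In the strong pair only, 8 of the 13 moved up, beside 4.98% of all tested genes. The calprotectin subunit S100a9 was at 0, 1.20 and 0 TPM in the intact mice, 0.613 and 0 TPM in the weak pair, and 55.4 and 51.9 TPM in the strong pair. Csf3r, the receptor for granulocyte colony-stimulating factor, was at 0.941, 0.697 and 0.860 TPM, then 0.887 and 1.54 TPM, then 73.7 and 35.6 TPM. The summed level of the 16 listed genes was 15.4, 22.3 and 15.2 TPM in the intact mice, 12.8 and 13.4 TPM in the weak pair, and 236 and 193 TPM in the strong pair. Both weak mice thus lay below the lowest intact mouse in this sum. Mpo, the primary granule peroxidase, was at 0 in all 7 libraries, and Camp and Elane, granule genes of immature cells, were lower in the strong pair than in the intact mice.

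Of 14 endothelial and pericyte markers, 10 moved up in the strong pair only, Plvap lay between, Cldn5 and Kcnj8 were in no class, and Aplnr alone moved up in both pairs. Pecam1, the adhesion molecule CD31, was at 6.49, 2.02 and 3.36 TPM in the intact mice, 3.44 and 5.17 TPM in the weak pair, and 62.8 and 19.1 TPM in the strong pair. Cdh5, vascular endothelial cadherin, was at 4.20, 1.20 and 1.75 TPM, then 1.52 and 3.88 TPM, then 58.4 and 22.7 TPM. Strong mouse 3 was above strong mouse 4 for both genes. Aplnr, the apelin receptor, stood at 9.09, 9.18 and 4.40 TPM in the intact mice, 28.7 and 49.2 TPM in the weak pair, and 44.0 and 23.3 TPM in the strong pair, so that its pairs overlapped. The summed level of blood markers went with the split between the pairs. It was 732, 269 and 379 TPM in the intact mice, 186 and 128 TPM in the weak pair, and 1628 and 792 TPM in the strong pair. Of 7 tested, 1 moved up and 2 down in the weak pair, and 3 moved up in the strong pair. Their list medians were -0.03 and 1.28. The part of blood in the endothelial, neutrophil and macrophage differences was not tested.

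None of 16 matrix metalloproteinases moved in the weak pair, where 2.34% of all tested genes moved up and 1.28% down. In so short a list none is near those shares. In the strong pair 8 moved up, beside 8.78% of all tested genes. Mmp3, stromelysin-1, was at 134, 86.0 and 88.9 TPM in the intact mice, 92.2 and 275 TPM in the weak pair, and 8725 and 7330 TPM in the strong pair. Mmp13, the collagenase of cartilage, was at 1.40, 1.65 and 1.16 TPM, then 0.958 and 5.40 TPM, then 196 and 104 TPM. In both genes weak mouse 1 lay within or below the intact range and weak mouse 2 above it. Timp1, an inhibitor of these proteases, had already moved in the weak pair, at 29.1, 34.0 and 21.4 TPM in the intact mice, 110 and 200 TPM in the weak pair, and 733 and 423 TPM in the strong pair. Among 18 ADAM and ADAMTS proteases, Adam8, Adam12 and Adam19 moved up in both pairs. Adam8 itself was at 1.24, 1.69 and 1.59 TPM in the intact mice, 3.52 and 5.59 TPM in the weak pair, and 66.3 and 54.9 TPM in the strong pair.

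Scar and injury matrix genes moved up in both pairs for 5 of 24, namely Tnc, Col3a1, Col12a1, Cthrc1 and Timp1. The share over all tested genes was 1.22%. In the weak pair 2 of the 24 moved down, namely Acta2 (-1.24) and Thbs1 (-1.01), with strong-pair differences of -0.1 and -0.7. Tnc encodes tenascin-C, a matrix glycoprotein of wounds. It was at 1.0, 0.890 and 1.10 TPM in the intact mice, 3.46 and 16.3 TPM in the weak pair, and 189 and 48.2 TPM in the strong pair. Col1a1, the main chain of type I collagen, was at 670, 945 and 589 TPM, then 1082 and 1072 TPM, then 6014 and 1983 TPM. Postn, encoding periostin, showed the unevenness inside the weak pair, at 1.29, 0.397 and 1.11 TPM in the intact mice, 1.25 and 15.8 TPM in the weak pair, and 168 and 40.9 TPM in the strong pair.

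Cell-cycle genes gave the list in which the weak pair came nearest to the strong pair among those with a median difference above 1 in the strong pair. Of 24, 14 moved up in both pairs and none in the strong pair only, and the list medians were 1.09 in the weak and 1.54 in the strong pair. Mki67, which marks cycling cells, was at 2.53, 3.37 and 2.81 TPM in the intact mice, 12.1 and 10.4 TPM in the weak pair, and 36.2 and 17.3 TPM in the strong pair. Top2a, the topoisomerase of late S phase and mitosis, was at 1.62, 1.64 and 1.59 TPM, then 7.28 and 5.92 TPM, then 13.7 and 6.51 TPM. Rrm2, the regulated subunit of ribonucleotide reductase, was at 4.90, 2.5 and 6.16 TPM, then 17.2 and 14.2 TPM, then 15.2 and 11.6 TPM. Strong mouse 4 lay among the weak mice for Top2a, and the pairs overlapped for Rrm2. By mouse the list median was 1.17 and 0.89 in the weak pair and 1.82 and 1.09 in the strong pair, so strong mouse 4 lay between the weak mice. Both strong mice lay above both weak mice in 6 of the 14 genes and did not in the other 8, beside 184 and 111 of all 295 genes up in both pairs. The members that moved serve mainly in mitosis (Ccnb1, Cdk1, Aurkb, Bub1, Plk1, Kif11), and Aurka and the replication and G1 genes Mcm2, Mcm3, Mcm5, Mcm6, Ccne1, Ccne2, Ccnd1, Pcna and Tyms were in no class.

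The 250 bases before the RefSeq start of Top2a, at chr11:99024190-99024439 on the minus strand of GRCm38.p6, are shown for the cell-cycle list. Capitals mark the letters CCAAT and TTTGAA on either strand, which were added to the search after the values were seen.
Top2a: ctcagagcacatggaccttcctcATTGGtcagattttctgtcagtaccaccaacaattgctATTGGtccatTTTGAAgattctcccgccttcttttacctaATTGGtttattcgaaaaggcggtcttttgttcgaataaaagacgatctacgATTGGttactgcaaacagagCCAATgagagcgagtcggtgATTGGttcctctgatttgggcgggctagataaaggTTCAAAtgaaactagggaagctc

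Cartilage matrix genes did not move as a block, and the strong mice differed from each other. Of 21 tested, 4 moved up and 2 down in the weak pair, beside 2.34% and 1.28% of all tested genes. In the strong pair 2 moved up and 4 down, beside 8.78% and 6.19%. The list medians were 0.27 in the weak and -0.5 in the strong pair. Chad, encoding chondroadherin, was at 13184, 15935 and 17188 TPM in the intact mice, 7784 and 6743 TPM in the weak pair, and 1008 and 4768 TPM in the strong pair. Cilp2 also moved down in both pairs, with differences of -1.18 and -2.21. Comp, the cartilage oligomeric matrix protein, was at 2656, 3913 and 2736 TPM, then 2220 and 1720 TPM, then 539 and 1878 TPM. These 3 genes were lower in all 4 injured mice than in any intact mouse. The type II collagen gene Col2a1 was at 1697, 2331 and 2046 TPM in the intact mice, 4200 and 4454 TPM in the weak pair, and 1052 and 9312 TPM in the strong pair. For Col2a1 the strong mice stood on opposite sides of the intact range and both weak mice above it. The summed level of the 22 listed genes was 29408, 35862 and 34736 TPM in the intact mice, 28272 and 27686 TPM in the weak pair, 9810 TPM in strong mouse 3 and 28979 TPM in strong mouse 4.

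Small secreted proteins of cartilage moved down in both pairs for Cytl1 and Chodl, and in the strong pair only for Clec3a, Wif1, Frzb and Sostdc1, out of 11. Cytl1, a cytokine-like protein of chondrocytes, was at 1839, 2168 and 3169 TPM in the intact mice, 1176 and 951 TPM in the weak pair, and 116 and 396 TPM in the strong pair. Frzb, a secreted Wnt antagonist, was at 834, 771 and 1042 TPM, then 824 and 722 TPM, then 194 and 738 TPM. The low strong-pair mean of Frzb rests on mouse 3, since mouse 4 lay only just below the intact mice.

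Notochordal and nucleus pulposus markers were lower in the strong pair for 9 of 14. The keratins Krt8 and Krt18 moved down in both pairs. Krt8 was at 752, 798 and 521 TPM in the intact mice, 454 and 235 TPM in the weak pair, and 193 and 290 TPM in the strong pair. T was at 2954 and 2265 TPM in the weak pair and at 760 and 1069 TPM in the strong pair, beside the intact values given above. Krt8 thus overlapped between the pairs, while T was lower in both strong mice than in any weak mouse. Myoc, encoding the extracellular protein myocilin, had the lowest weak-pair difference of the named protein-coding genes (-2.33), at 100, 109 and 126 TPM in the intact mice, 34.6 and 13.0 TPM in the weak pair, and 5.95 and 5.25 TPM in the strong pair. Meox1, a homeobox gene of the somite lineage, chosen after its values were seen, was equally low in both pairs, at 51.3, 56.6 and 42.7 TPM, then 17.2 and 18.8 TPM, then 13.1 and 21.2 TPM.

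Markers of skeletal muscle, which may be left on a dissected disc, were lower in the injured mice as well. Their summed level was 1100, 504 and 273 TPM in the intact mice, 321 and 168 TPM in the weak pair, and 121 and 192 TPM in the strong pair. Of 13 tested, 12 moved down in the strong pair, 3 of them in the weak pair too, and the list medians were -1.22 in the weak and -1.73 in the strong pair. The sums of injured and intact mice overlapped, and limma's test called none of the 13 in mutants, beside 29.4% of all tested genes. Skin epidermis markers summed to 485, 528 and 423 TPM, then 438 and 355 TPM, then 167 and 243 TPM, with Krt5 and Ivl at 0 in all 7 libraries. Adipocyte markers summed to 9026, 9409 and 9964 TPM, then 5881 and 4975 TPM, then 1662 and 2147 TPM, nearly all of it Car3, a carbonic anhydrase that also stands in the notochordal list. Of 6 adipocyte markers tested, Car3 was the 1 that moved, down in the strong pair, and Adipoq, the adipocyte hormone adiponectin, was at 0 to 6.54 TPM. The part of adhering tissue in the genes that moved down was not tested.

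**Figure D3:**
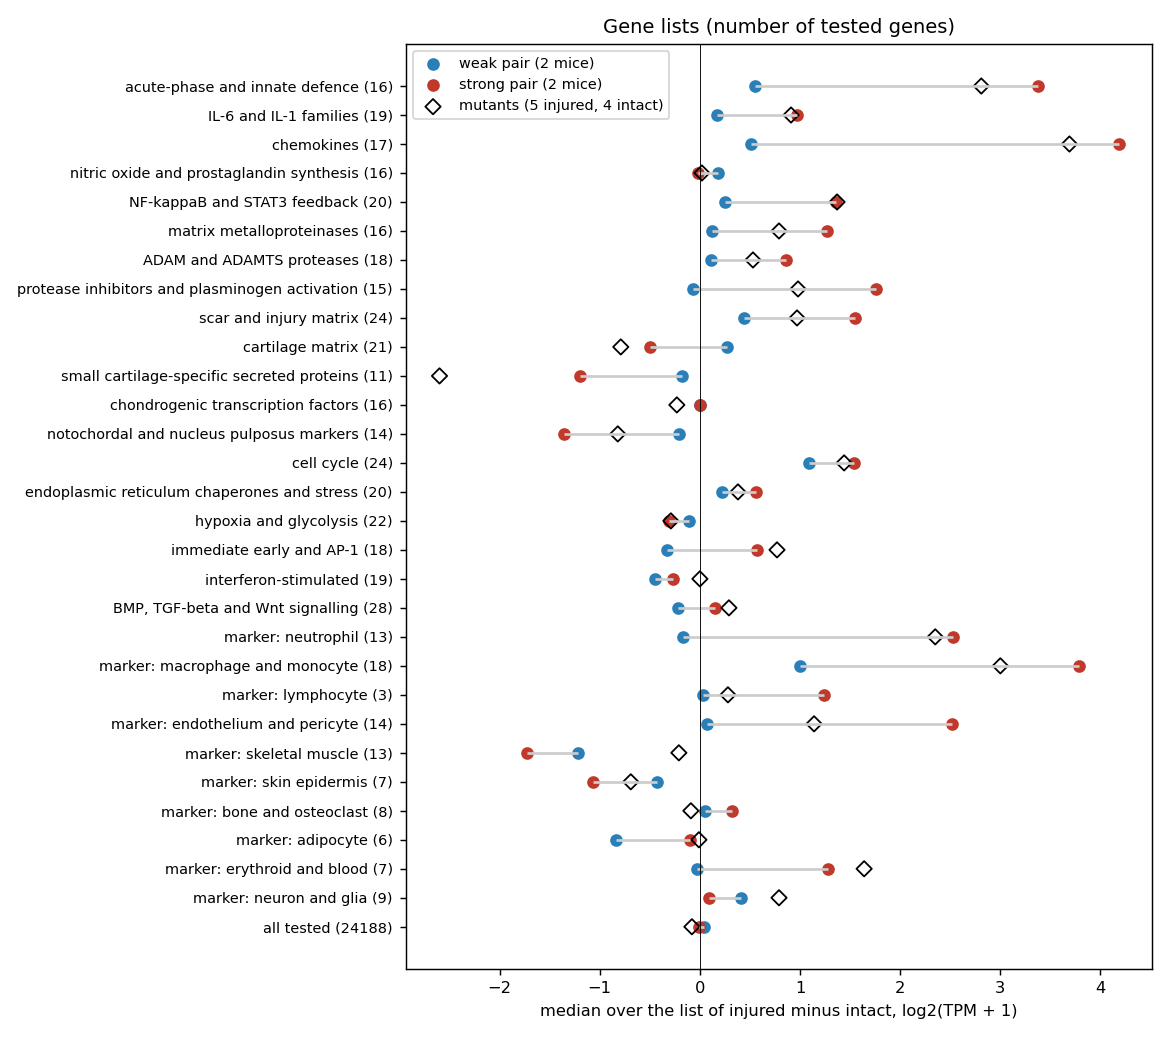
Medians over each gene list of the difference from intact, in log2(TPM + 1), for the weak pair, the strong pair and the Adam8EQ mutants, with the number of tested genes in brackets. Chemokine, macrophage, neutrophil and endothelial lists have a long step from weak to strong, the cell-cycle list has a short one (1.09 to 1.54), and all tested genes lie near 0.

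Some genes stood higher in the weak pair than in the strong pair. Serpina3n, a serine protease inhibitor of the acute phase, was at 210, 265 and 177 TPM in the intact mice, 1380 and 1499 TPM in the weak pair, and 320 and 355 TPM in the strong pair. All 4 injured mice lay above the intact mice, and both weak mice far above both strong mice. Fn1, encoding fibronectin, was at 6295, 7532 and 6227 TPM, then 14359 and 21438 TPM, then 9892 and 13182 TPM. Ppef1, encoding a calcium-binding phosphatase, was at 2.11, 1.20 and 3.62 TPM in the intact mice, 11.3 and 14.1 TPM in the weak pair, and 3.13 and 3.38 TPM in the strong pair. Pcsk5, a proprotein convertase chosen after its values were seen, was at 20.8, 27.3 and 13.0 TPM, then 57.4 and 69.7 TPM, then 17.0 and 21.9 TPM. For Ppef1 and Pcsk5 the strong mice had stayed within the intact range. In the mutants neither passed limma's test (adjusted p 0.138 and 0.113), but both rose without injured mutant 2 (limma's adjusted p 0.016 and 0.0104). Of the 142 genes up in the weak pair only, 12 are protein coding (8.45%, beside 60.7% of all tested genes), and 55 have under 200 bases of exon or a small-RNA biotype (38.7%, beside 9.66%). For immediate early genes intact mouse 1 stood apart from the other intact mice. Egr1, a zinc-finger factor induced within minutes of a stimulus, was at 695, 135 and 119 TPM in the intact mice, 38.1 and 62.3 TPM in the weak pair, and 206 and 139 TPM in the strong pair. For Egr1 both weak mice lay below the other intact mice too, whereas Fos was at 1079 TPM in intact mouse 1, at 37.8 and 20.9 TPM in the other 2, and at 16.5 and 26.3 TPM in the weak pair.

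The rule for naming genes took the largest differences whatever the kind of gene, and in the class moved up in both pairs 5 of its 8 genes were short RNA genes (Mir5709, Snord11, Mir5123, Snord34 and Mir33) and another, Traj17, is a J segment of the T-cell receptor. Each of these 6 rested on 9 implied reads or fewer in any wild-type library, and limma's test called none of them in mutants. The same held in mutants for the microRNA genes Mir7655, Mir3110, Mir7236 and Mir6924, down in both pairs. The genes that the rule named as up in the strong pair only were Cxcl2, S100a9, Ereg, Ccl3, Csf3r, S100a8, Mmp10 and Ptgs2. Ereg, encoding the growth factor epiregulin, was at 3.04, 4.80 and 3.95 TPM in the intact mice, 3.80 and 5.56 TPM in the weak pair, and 177 and 146 TPM in the strong pair. Ptgs2, the inducible cyclooxygenase, was at 3.04, 2.26 and 2.63 TPM, then 2.31 and 4.85 TPM, then 58.4 and 146 TPM. Serpina1c, an antitrypsin gene with near-identical copies whose reads could be shared, had the lowest difference of the protein-coding genes named as down in the strong pair only (-2.89), at 40.4, 40.6 and 27.9 TPM, then 37.6 and 28.3 TPM, then 1.99 and 7.19 TPM.

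The Adam8EQ mutants, which the choice of pairs did not use, allowed a test of injury in other mice. The filter of 1 TPM in at least 3 of the 16 libraries did count the mutants, however. A gene that reached 1 TPM in the strong pair alone among wild-type mice was kept only if a mutant library reached it too. With no filter, 1275 genes were up in the strong pair only, beside 1204 with it. With limma on 5 injured and 4 intact mutants, 7103 of 24188 genes (29.4%) passed an adjusted p of 0.05, of which 3034 (12.5%) rose and 4069 (16.8%) fell. The share of rises among the called genes was 42.7%, and with median-of-ratios scaling it was 52.3%, with 3686 higher and 3358 lower. Of the 295 genes up in both wild-type pairs, 223 (75.6%) rose and 0 fell in the mutants. Of the 1204 up in the strong pair only, 654 (54.3%) rose and 3 fell, and of the 975 down in the strong pair only, 646 (66.3%) fell and 0 rose. Of the 616 and 402 genes that lay between, 426 (69.2%) of those up rose and 204 (50.7%) of those down fell. Of the 115 genes down in both pairs, 28 (24.3%) fell. Of the 142 genes up in the weak pair only, 2 (1.41%) rose and 8 fell, and of the 86 down in the weak pair only, 10 (11.6%) fell and 6 rose. These shares are set beside the background without a test of the difference. Without genes of under 200 bases of exon or a small-RNA biotype, an alternative added after the data were seen, 217 of 253 genes up in both pairs rose in the mutants (85.8%, beside 13.4% of the 21852 genes left).

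Named genes followed their class in the mutants to different degrees. Lcn2 rose in the mutants by 4.42 ± 0.46 (SE) with an adjusted p of 0.000396 in limma's test, and Il11 by 7.23 ± 0.55 with 9.77e-05. In the mutants 16 of the 24 cell-cycle genes rose and 0 fell, beside 12.5% and 16.8% of all tested genes. Of the 14 notochordal and nucleus pulposus markers, 2 rose, 2 fell and 10 did not pass limma's test, which is near those shares. Top2a rose by 1.68 ± 0.37 (adjusted p 0.00785, limma). Cxcl2 rose by 5.68 ± 0.88 (adjusted p 0.00149, limma), and S100a9 rose by 4.21 ± 1.24 (adjusted p 0.0172, limma, and 0.0515 without intact mutant 2). S100a9 ranged from 3.0 to 336 TPM over the 5 injured mutants and from 0 to 0.775 TPM over the 4 intact ones, so the injured mutants also varied widely among themselves. Chad fell by 2.71 on the log2 scale, with an SE of 0.40 and an adjusted p of 0.00399 in limma's test, but of 0.0806 when no filter on low values was set. Myoc fell by 3.14 and Meox1 by 2.99, with adjusted p of 0.00885 and 0.00127 in limma's test. Serpina3n (2.05 ± 1.0, adjusted p 0.0995), Fn1 (1.69 ± 0.44, adjusted p 0.0855) and Aplnr (0.42 ± 0.56, adjusted p 0.559) did not pass limma's test in the mutants. Krt8 and T did not pass either, with -2.56 ± 1.15 (SE) and -3.15 ± 1.25. Single mutants decided some of these, since limma's adjusted p was 0.00242 for Serpina3n and 0.0245 for Fn1 without injured mutant 2, and 0.034 for Krt8 and 0.0239 for T without injured mutant 4. T also passed without injured mutant 1, with 0.0486. With all 16 libraries in 1 limma fit, Fn1 (0.0166), Krt8 (0.0277) and T (0.0178) passed. That fit takes part of its spread from the wild-type mice whose values chose the pairs, so it is not free of that choice.

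**Figure D4:**
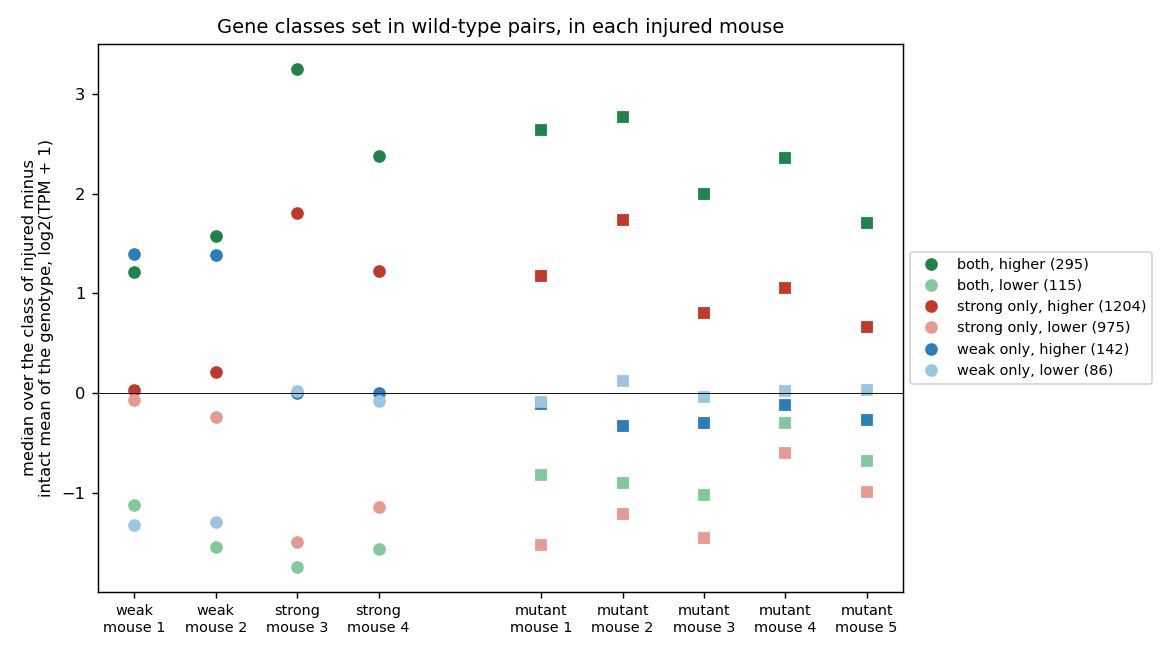
Median over each gene class of the difference of 1 injured mouse from the intact mean of its genotype, in log2(TPM + 1). Circles are 4 wild-type mice, which set the classes. Squares are 5 Adam8EQ mutants, which bore on the classes only through the filter on low values. In the mutants the genes up in both pairs lie at 1.71 to 2.77 and the genes up in the strong pair only at 0.66 to 1.74.

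In each injured mutant the genes up in both pairs had a higher median than the genes up in the strong pair only. These classes were not matched for size of change or level. Their median strong-pair differences were 2.83 and 1.49, and their median wild-type levels 9.0 and 3.57 TPM. The part of these in the order of the mutant medians, and in the shares called, was not tested. Genes up in the strong pair only had medians of 0.03 and 0.21 in the weak mice, 1.81 and 1.22 in the strong mice, and 1.17, 1.74, 0.80, 1.05 and 0.66 in injured mutants 1 to 5. The choice of the class sets the weak and strong medians. Genes up in both pairs had medians of 1.21 and 1.58 in the weak mice, 3.25 and 2.38 in the strong mice, and 1.71 to 2.77 in the mutants. On the first principal component of all tested genes, which held 40.6% of the variance, the weak mice were at -42.6 and -23.2, between the intact wild-type mice (-64.2 to -57.7) and the strong mice (84.9 and 41.8), with the injured mutants at 39.6 to 97.8. Intact mutants were at -66.9 to -40.2, so weak mouse 1 lay within the range of the intact mutants. Across the 24188 genes, which are not independent replicates, the mutant change had a Pearson correlation of 0.334 with the weak-pair difference and 0.77 with the strong-pair difference. These 2 values share the intact wild-type mice and are given as descriptions.

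The promoter table held 158 of the 295 genes up in both pairs and 676 of the 1204 up in the strong pair only, with 185 and 877 promoters. The AP-1 letters TGANTCA were in 9.19% of promoters of genes up in both pairs and in 9.35% of those up in the strong pair only, beside 5.02% of the promoters of all tested genes. The NF-kappaB motif of GGG and TTTCC was in 5.95% and 2.39%, beside 1.42%, and the motif of GGG and TTCC, which overlaps it, in 10.3% and 7.18%, beside 5.04%. The letters CCAAT, marked in the Top2a window, were in 35.7% and 29.1%, beside 34.3%, and TTTGAA in 18.4% and 14.1%, beside 11.3%. For CCAAT the share in genes up in both pairs thus lay close to that of all tested genes. The AP-1 letters were also in 6 of the 43 promoters of genes down in both pairs (14%), and in 4.93% of those of genes down in the strong pair only. The 250-base window of Lcn2 held none of the NF-kappaB or C/EBP letters (TTGCNNCAA) searched. A match is a description of letters in the window and shows no binding.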

How the data were processed

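Per the labels' protocols, RNA of 4 pooled tail discs per mouse was Trizol-extracted, depleted of ribosomal RNA and made into NEBNext Ultra II libraries, while the molecule field names polyA RNA. The authors deposited 1 table of TPM values over 49315 genes, each column summing to 1000000. The submitters' processing notes name bcl2fastq 2.20 and GRCm38; the aligner, counter and use of strand are not given in the sources used here, so antisense and overlapping genes cannot be told apart. Mice are separate animals per the labels.

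The value of 1 read was found per library as the largest unit that made TPM times exon length (GENCODE M21) whole within 0.05 for values under 20 reads; all 16 libraries held 10193521 to 24816084 reads. The 24188 genes that reached 1 TPM in 3 or more of the 16 libraries were kept. Pair differences of mean log2(TPM + 1) were not tested. Injury in the 9 mutant libraries was tested with limma 3.58.1 in R 4.3.3 (lmFit, eBayes with trend) on log2(TPM + 1), pseudocount 1, which understates the change of low genes, with Benjamini-Hochberg adjustment over all tested genes at 0.05. On simulated data with 200 of 24188 genes changed by 2 on the log2 scale it recovered 87.5%, with 12 false calls. The changed genes all had a mean log2(TPM + 1) above 2, and the noise was normal and independent between genes. Recovery was thus not measured for genes near 0, nor either rate under spread that genes share. Each SE printed with a mutant change comes from the spread of that gene alone. The eBayes step draws the spreads of genes together, so limma's p does not follow from that SE. The 14 genes that moved in opposite directions in the 2 pairs were kept out of the classes. Reads shared by near-identical genes could be split unevenly.

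The pairs, members and gene lists were chosen with earlier results of these data known, so no list is independent evidence. Of 493 listed genes, 486 were matched by their listed symbol. Genes were named by rule: with a symbol and a mean of at least 5 TPM in the wild-type libraries, the 8 largest rises and 6 largest falls of the genes moved in both pairs (by the weak pair) and in the strong pair only, and the 4 largest each way in the weak pair only; listed genes could be named whatever their values. Other names are said to have been chosen after their values were seen. Alternatives were a pseudocount of 0.1, no filter or a mean of 5 TPM, median-of-ratios and quantile scaling, other limits, other fits and leaving out each mouse. Promoters are the 250 bases before RefSeq starts (GRCm38.p6).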

Additional observations from a re-analysis of the deposited data

Results flagged for a closer look

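Adam8 in the intact mutants had 1 mouse far from the other 3, with a gap of 0.832 of the range of the 4 mice on the log2 scale. Mouse 1 was at 2.97 TPM and mice 2 to 4 at 1.08, 0.956 and 1.20 TPM. Chance alone sets apart a mouse in this way in about 1 in 20 groups.

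In 5 genes within the limits for naming, all weak mice had moved one way and all strong mice the other way from the intact mice, and the difference was not tested. The strong pair minus the weak pair was 3.04 for Myl9, a myosin light chain of contractile cells, 3.17 for Hbb-bs, a beta-globin, and 2.41 for Igfbp4, which binds insulin-like growth factors. It was -3.42 for Mir335 and 3.17 for Mir1948, short RNA genes at low counts. Myl9 was at 12.0, 10 and 8.01 TPM in the intact mice, 3.58 and 3.51 TPM in the weak pair, and 66.9 and 19.5 TPM in the strong pair. Hbb-bs was at 403, 119 and 210 TPM, then 79.2 and 51.1 TPM, then 839 and 404 TPM.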

How the results depend on the processing

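No called value of a named gene changed sign under the alternatives run. Calls of named genes in the mutants were lost 48 times and gained 31 times over all alternatives. Fn1 passed also with a mean of at least 5 TPM (0.0207) and without the trend (0.0156), and T with a mean of at least 5 TPM (0.0443), as limma's adjusted p. With a pseudocount of 0.1, 651 genes were up in both pairs, 210 down in both and 145 down in the weak pair only. With a mean of at least 5 TPM, 50 were down in both, 535 up and 649 down in the strong pair only, and 35 up and 47 down in the weak pair only; of the strong-only rises 384 rose in the mutants, of the weak-only rises 0, and of the weak-only falls 4 fell. With a minimum difference of 2, the counts were 46 up and 12 down in both pairs, 309 and 60 in the strong pair only, and 22 and 14 in the weak pair only. With the weak-pair limit at 0.25, 780 were up and 614 down in the strong pair only. Without genes of under 200 bases of exon or a small-RNA biotype (added after seeing the data), 87 were up and 55 down in the weak pair only. With no filter 0 of the weak-only rises rose in the mutants. The cause of these moves was not tested, apart from fewer genes being kept.

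Leaving out 1 mouse at a time gave 291 to 545 genes up and 121 to 267 down in both pairs, 1011 to 1948 up and 836 to 1619 down in the strong pair only, and 135 to 413 up and 88 to 280 down in the weak pair only. A pair left with 1 mouse has 1 condition fewer to meet. Without weak mouse 1, the counts were 545 up and 231 down in both pairs and 406 up and 280 down in the weak pair only, and without weak mouse 2 the weak-only counts were 413 and 206. Without strong mouse 4 the strong-only counts were 1948 and 1619. Genes down in both pairs numbered 179, 215 and 267 without intact mouse 1, 2 and 3, and the weak-only falls 145 without intact mouse 3. In the mutants, 4543 to 7040 genes passed, the lowest without intact mutant 2. Of the classes, 201 to 222 (up in both), 17 to 37 (down in both), 446 to 687 and 418 to 696 (strong pair only, up and down), 0 to 9 and 7 to 9 (weak pair only, up and down) passed in the mutants. Without intact mutant 2 the counts were 17 down in both pairs and 418 down in the strong pair only. Without injured mutant 2, 9 of the weak-only rises rose.

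Mice with the same number are different animals. The correlations of same-numbered mutants were -0.011, 0.02, 0.078 and 0.036, and not every mouse matched its own number best, so the numbers do not pair them. With the replicate block 5284 genes passed in the mutants, and 6 of the weak-only falls fell. Precision is limited by 2 mice per pair and, for short genes, by few reads.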

Other observations

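Further lists had small medians in both pairs. Hypoxia and glycolysis genes had list medians of -0.11 in the weak and -0.31 in the strong pair. Of 22, 6 moved down in the strong pair and 0 in the weak pair, beside 6.19% and 1.28% of all tested genes. Interferon-stimulated genes had medians of -0.45 and -0.27. Endoplasmic reticulum chaperones and stress genes had medians of 0.22 and 0.56, and 3 of 20 moved up in the strong pair only.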
